A study of Mus musculus with 6 samples.

Results

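SR proteins and hnRNPs are the RNA-binding proteins that decide much of alternative splicing, and the transcripts of 32 of their genes are described here in cultured mouse T cells with and without a working Il17a gene. The members are the genes named Srsf with a number (11 genes), Tra2a and Tra2b, Ptbp1 and Ptbp3, and the genes whose name starts with Hnrnp (17 genes), leaving out the sex chromosomes. They are 32 of the 38483 genes and 230 of the 93480 transcripts in the deposited table. Of the 230 transcripts, 121 are annotated as protein coding, 49 as retained intron, 22 as nonsense-mediated decay and 38 as processed transcript, a class of spliced RNA with no annotated reading frame. Hnrnph2 has a fitting name but lies on X and was left out. The pseudogene Hnrnpa1l2-ps, and a separate gene ID that is also named Hnrnpr and annotated as lincRNA, have no transcript of these 4 classes and were left out as well.

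The knockout group (KO) held 3 libraries from IL-17A-/- mice and the wild-type group (WT) held 3 libraries from IL-17A+/+ mice, numbered 1 to 3 in each and called biological replicates by the labels. All mice were on the B10.RIII background, a strain used in models of autoimmune eye disease. Splenic CD4+CD62L+ T cells of both groups were enriched with a magnetic kit and polarized toward Th17 cells for 3 days by IL-6 at 10 ng/ml, the cytokine IL-23 at the same dose and TGF-β at 1 ng/ml, while IFN-γ was blocked with 10 µg/ml antibody and IL-4 with a further 10 µg/ml. Poly(A) RNA was read from stranded libraries in bulk, so fewer cells of a type and less RNA per cell cannot be told apart. The sources used here do not give the animals' age or whether animals were pooled.

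SR proteins carry RNA-recognition motifs and a tail rich in serine and arginine, and they commonly bind exons and favour their inclusion. hnRNPs coat nascent transcripts and often act the other way, silencing exons. Many of these genes control their own level with a so-called poison exon or a retained intron: including it brings an in-frame stop codon early in the message, which exposes the RNA to nonsense-mediated decay or keeps it in the nucleus, and no full-length protein is made. In T cells hnRNP L is known for silencing the variable exons of the CD45 phosphatase during activation.

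The libraries held 47335736 to 49743762 estimated counts each, where an estimated count is the number of reads the authors' software assigned to a transcript, often in part. Il17a, the targeted gene, had 57, 0 and 1 counts in KO 1, 2 and 3, against 7819, 9364 and 5161 in WT 1, 2 and 3. The libraries of one genotype were not alike in other respects. Xist, which marks female cells, was at 2.58, 0 and 627 CPM, the counts scaled to library size, in KO 1, 2 and 3 and at 567 to 664 CPM in WT, and Ddx3y, a gene on Y, was at 44.5, 38.0 and 0 CPM in KO 1, 2 and 3, against 0.452, 0 and 0 CPM in WT 1, 2 and 3. KO 3 is the one KO library in which both markers match WT, and for KO 1 and KO 2 sex and genotype cannot be told apart. Summed CD8 T cell markers (2 genes) were at 658, 114 and 112 CPM in KO, against 423, 92.6 and 71.3 CPM in WT, and were highest in the number 1 libraries of both groups. Summed myeloid markers (3 genes) were at 66.5, 159 and 19.3 CPM in KO, against 33.4, 79.9 and 5.56 CPM in WT, and were highest in the number 2 libraries. Summed B cell markers (4 genes, none at 0) ran from 284 to 506 CPM in KO and from 106 to 228 CPM in WT, with no overlap. Of the 3 NK cell markers, Ncr1 was at 0.0978 to 0.286 CPM in KO and 0.123 to 0.272 CPM in WT, while Klrd1 was at 113 to 333 CPM in KO and 57.0 to 196 CPM in WT. The T cell markers Cd3e and Cd4 were at 163 to 222 and 246 to 634 CPM in KO and at 187 to 214 and 490 to 580 CPM in WT. The T cell marker Cd5, a surface receptor that dampens antigen receptor signals, was at 194, 234 and 234 CPM in KO, against 344, 311 and 312 CPM in WT. All KO libraries were lower, with a log2 change of -0.56 in DESeq2 with the replicate number as a block (adjusted p = 0.0024; unadjusted p = 0.0054 in edgeR without it). The part of this difference in the results that follow was not tested.

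The stretches below show how the non-coding forms depart from the reading frame in 4 of the genes with large non-coding shares. Each runs from the first base of the exon part that no complete coding transcript of the gene uses to the first in-frame stop codon, in capitals. A complete coding transcript is one with an annotated start and stop codon. Translation was taken to start at the start codon of the gene's complete coding transcript with the most counts. They are 5′ to 3′ on the transcribed strand, from the GENCODE vM21 transcripts on GRCm38.
Srsf3-002: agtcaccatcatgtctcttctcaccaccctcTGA
Srsf3-003: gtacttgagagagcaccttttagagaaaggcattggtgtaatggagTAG
Srsf5-005: gtttgtTGA
Srsf5-006: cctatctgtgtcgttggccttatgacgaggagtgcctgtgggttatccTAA
Srsf6-002: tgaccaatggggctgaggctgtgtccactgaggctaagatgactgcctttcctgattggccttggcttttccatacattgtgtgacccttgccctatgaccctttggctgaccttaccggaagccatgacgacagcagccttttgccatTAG
Hnrnpl-006: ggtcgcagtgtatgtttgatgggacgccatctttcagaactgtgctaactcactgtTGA

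Of these stretches, 3 are whole extra exons with exons after them, the form usually called a poison exon. The Srsf3-002 stretch, chr17:29039454-29039487, opens a 456 nt exon, the fourth of 7, and ends translation after 124 of the 164 codons of Srsf3-001. The Srsf6-002 stretch, chr2:162932815-162932966, lies in a 268 nt exon, the third of 7, and leaves 135 of 339 codons. The Hnrnpl-006 stretch, chr7:28817335-28817393, lies in a 70 nt exon, the sixth of 13, and leaves 179 of 456 codons. Their stops lie 548, 534 and 842 nt before the last exon junction in Srsf3-002, Srsf6-002 and Hnrnpl-006, all beyond the 50 nt commonly taken as the distance that triggers decay.

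The other 3 read into an intron or end the message early. Srsf5-005, with a stretch at chr12:80947866-80947874, keeps the intron after a coding exon and meets a stop within 9 nt, after 124 of 269 codons. Srsf3-003, with a stretch at chr17:29038625-29038673, does the same after 129 of 164 codons. Srsf5-006 ends in a 376 nt exon of its own, from which chr12:80948129-80948179 is shown, so its stop after 138 of 269 codons has no junction behind it. The deposited lengths of the Srsf3 transcripts differ from those in vM21, so their stretches belong to the vM21 models of the same name.

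Over all members, 50 of the 109 transcripts outside the coding class held the start codon of the gene's complete coding transcript with the most counts. Of those, 34 met an early stop in sequence that no complete coding transcript uses. These 34 came from 12 genes. By class they were 15 of 17 retained-intron transcripts, 15 of 20 processed transcripts and 4 of 13 decay-class transcripts. The stop lay over 50 nt before the last junction in 15 of the 34. Early stops in exons shared with complete coding transcripts were not counted, so these counts do not say how rare early stops are. In the decay class, Hnrnph3-003 stops after 71 of 331 codons, 609 nt before the last junction. Ptbp1-008 stops after 353 of 489 codons, 361 nt before it. Tra2b-003 instead reads the same 188 codons as Tra2b-006, the coding transcript it was set against. Tra2b-006 begins at chr16:22255247, downstream of the beginning of Tra2b-003 at chr16:22265829. Early stops upstream of the start codon of Tra2b-006 were not looked for, so an intact frame of Tra2b-003 is not shown. The frame of the other 59 of the 109 was not read. Their annotated models lack the start codon used for their gene, and other start codons were not tried.

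The share of a gene's estimated counts that fell outside its coding transcripts differed widely between members. It was over 50% in 7 genes, between 2% and 50% in 10, and above 0 but under 2% in 4. It was 0 in the 11 genes that have only coding transcripts in the deposited table. The 7 were Hnrnph1 (80.6% over all 6 libraries), Srsf3 (79.3%), Srsf2 (74.6%), Hnrnph3 (67.6%), Srsf6 (65.1%), Srsf5 (58.0%) and Hnrnpl (53.9%). The 11 were Hnrnpa0, Hnrnpa1, Hnrnpa2b1, Hnrnpab, Hnrnpc, Hnrnpf, Hnrnpul1, Hnrnpul2, Srsf7, Srsf12 and Tra2a, of which Hnrnpa0, Hnrnpul2, Srsf7 and Tra2a have a single transcript in the table. For all 11 the table cannot show a non-coding share, so the 0 follows from the annotation. Srsf7 and Tra2a, among them, are known for poison exons.

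**Figure D1:**
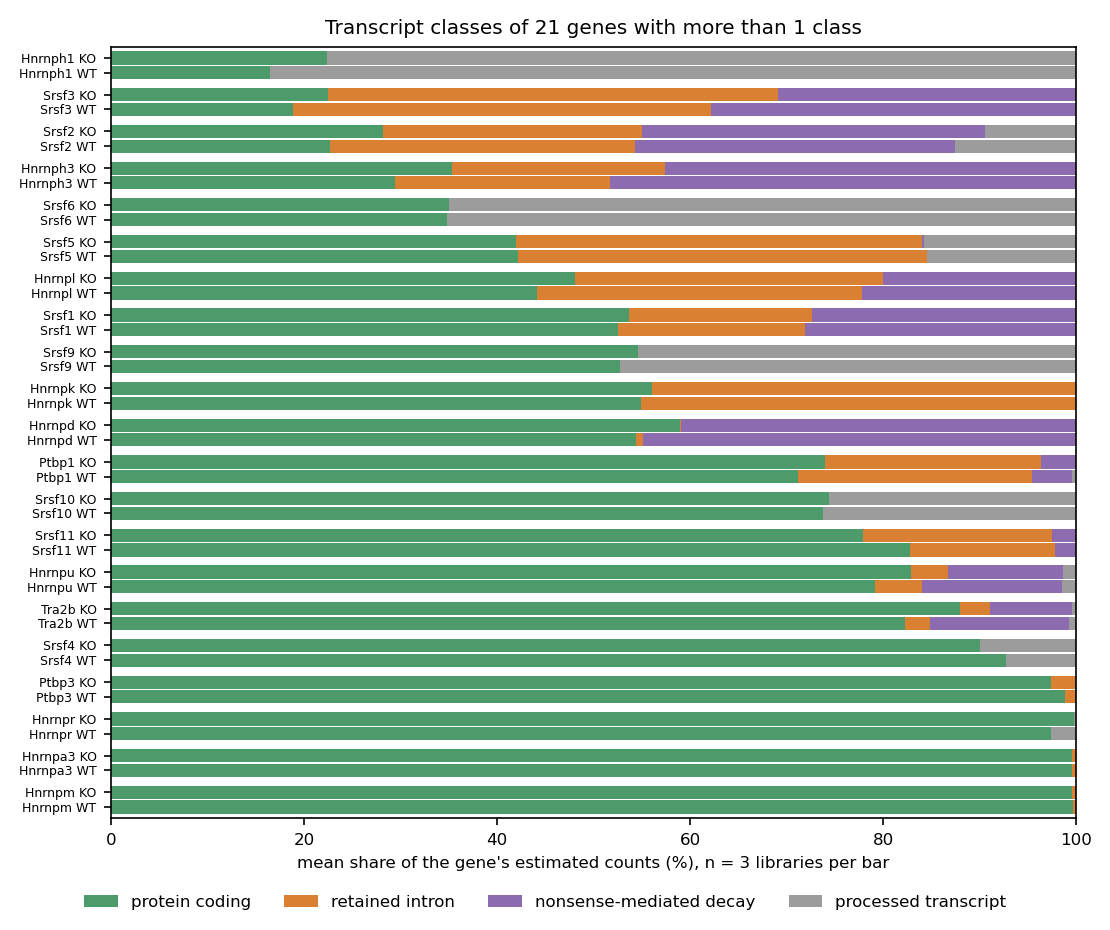
Mean share of each gene's estimated counts by transcript class (%), as stacked bars for KO (upper bar of each pair) and WT (lower bar), n = 3 libraries per bar, for the 21 members with more than 1 class. Genes are ordered by the share outside the coding class, from Hnrnph1 at 80.6% down; KO and WT bars of a gene are alike in their leading class.

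The SR and Tra2 genes together had less of their RNA in coding form than the hnRNP and Ptbp genes. Coding transcripts held 53.1 ± 1.58% of the SR and Tra2 counts in KO and 51.4 ± 4.19% in WT, and 82.5 ± 1.07% of the hnRNP and Ptbp counts in KO and 81.0 ± 1.04% in WT (SD, n = 3 each). All other genes with more than 1 class had 79.1 ± 0.69% in KO and 78.4 ± 1.13% in WT. Both family sums include members with a single class. Over the members with more than 1 class, the coding share was 48.3 ± 1.41% in KO and 46.8 ± 4.24% in WT for 10 SR and Tra2 genes, and 64.4 ± 1.92% in KO and 61.2 ± 2.89% in WT for 11 hnRNP and Ptbp genes (SD, n = 3 each), both below the other genes with more than 1 class in every library. Longer transcripts collect more reads, so the shares were also formed after dividing by length. The coding share was then 42.1 ± 1.42% in KO and 41.9 ± 4.27% in WT for SR and Tra2 genes. It was 77.3 ± 0.77% in KO and 76.2 ± 1.35% in WT for hnRNP and Ptbp genes. On this scale all other genes with more than 1 class had 70.0 ± 0.61% in KO and 69.3 ± 0.68% in WT (SD, n = 3 each). The family sums per length again include members with a single class.

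Among the SR genes, Srsf3, which encodes the smallest SR protein and a partner in mRNA export, had sizeable counts in 3 classes. Its single decay-class transcript, Srsf3-002 with the poison exon printed above, held 30.1, 30.7 and 31.9% of the gene's counts in KO 1, 2 and 3, against 40.7, 34.9 and 37.8% in WT 1, 2 and 3. Its coding transcript Srsf3-001 held 22.4, 20.4 and 24.6% in KO, against 18.7, 18.8 and 18.9% in WT. All KO libraries lay below all WT libraries in the first share and above them in the second. Retained-intron transcripts held the largest part, 46.6 ± 2.83% in KO and 43.4 ± 2.90% in WT (SD, n = 3 each).

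These shares were compared with limma on the log2 odds of a class against the rest of its gene, fitted over 12332 gene-class shares with Benjamini-Hochberg adjustment. The odds of the Srsf3 decay class differed by -0.44 on the log2 scale (SE 0.23, unadjusted p = 0.111 in limma), and those of the coding class by 0.32 (SE 0.23, unadjusted p = 0.218), so neither passed. Of the shares tested, 1 passed an adjusted p of 0.05, which is 0.00811% of those tested, and 0 of the 58 member shares did. At an unadjusted p under 0.05, 309 shares passed (2.51%), among them 1 member share, the processed transcripts of Ptbp1. They held 0.00341, 2.76e-07 and 0.12% in KO 1, 2 and 3, against 0.17, 0.97 and 0.16% in WT 1, 2 and 3. Ptbp1-009 and Ptbp1-011 averaged 3.83 and 21.7 counts, mostly in WT, so the share passed the count filter through WT. Per length the groups overlapped, with KO 3 at 0.53% and WT 1 at 0.41%. With 3 libraries a group the limma test is weak, so a count of 0 does not show that the shares were alike.

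KO and WT values did not overlap for 8 of the 58 member shares, or 13.8%, against 7.34% of all shares tested. KO lay above WT in 3 of them, the coding shares of Hnrnph1, Srsf2 and Srsf3, against a background of 3.71%. KO lay below WT in 5, the processed transcripts of Hnrnph1, Srsf2 and Ptbp1 and the decay class of Srsf3 and Tra2b, against 3.62%. The classes of one gene sum to 100%, so a higher coding share and a lower non-coding share of the same gene are one observation. In the number 3 libraries, where Xist was alike in KO and WT, the Srsf3 decay-class share was 31.9% in KO and 37.8% in WT. That of Tra2b was 9.12% in KO and 19.0% in WT. Shares picked for no overlap have this order within every number, so these values are no separate check. In direction, the coding share was higher in KO for 16 of 21 members (76.2%, against 53.0% of 5088 coding shares), the retained-intron share for 6 of 15 (40.0%, against 45.9%), the decay-class share for 3 of 11 (27.3%, against 46.3%) and the processed-transcript share for 2 of 11 (18.2%, against 50.4%). The summed B cell markers also separated KO from WT in every library, and their part in these shares was not tested.

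**Figure D2:**
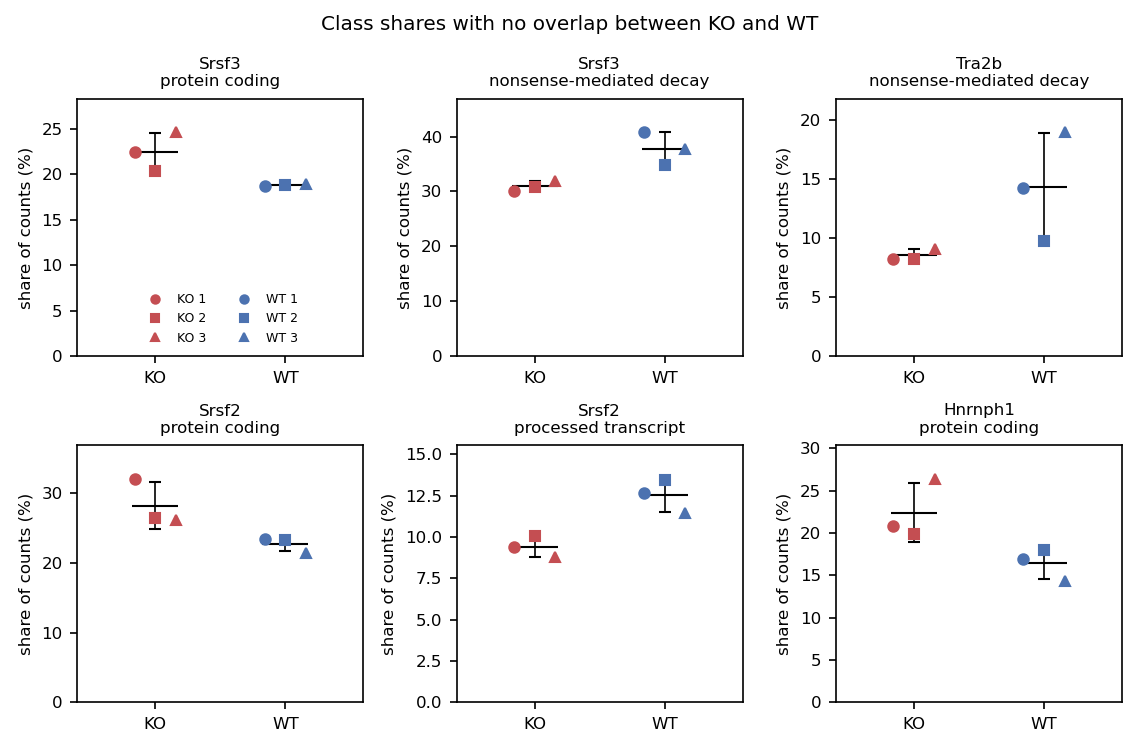
Share of the gene's estimated counts (%) in each library for 6 of the 8 member shares with no overlap, KO left and WT right, symbols for the replicate number, black bars for the mean and SD of n = 3. The Srsf3 and Tra2b decay-class shares and the Srsf2 processed-transcript share lie lower in all KO libraries, and the coding shares of Srsf3, Srsf2 and Hnrnph1 lie higher.

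Tra2b, an SR-like activator of exons rich in GAA repeats, had a decay-class share of 8.27, 8.21 and 9.12% in KO 1, 2 and 3, against 14.3, 9.78 and 19.0% in WT 1, 2 and 3. The KO libraries lay close together below the widely spread WT libraries. The difference was -0.80 in log2 odds (SE 0.37, limma unadjusted p = 0.0744). Tra2b kept 88.0 ± 0.96% of its counts in coding form in KO and 82.3 ± 5.34% in WT (SD, n = 3 each).

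Srsf2, which also helps release paused RNA polymerase, spread its counts over all 4 classes. Its processed transcripts held 9.40, 10.0 and 8.77% in KO, against 12.7, 13.4 and 11.5% in WT, and every KO library was lower. Its coding transcripts held 32.0, 26.4 and 26.1% in KO, against 23.4, 23.3 and 21.4% in WT, and every KO library was higher. The decay class, 35.6 ± 3.86% in KO and 33.2 ± 6.38% in WT, and the retained-intron class, 26.8 ± 7.10% in KO and 31.6 ± 8.35% in WT (SD, n = 3 each), overlapped.

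In the other SR genes the shares of the genotypes overlapped. Srsf1, an SR factor known as an oncogene product, had 53.6 ± 3.05% coding in KO and 52.5 ± 3.07% in WT, with the rest shared between the decay class at 27.3 ± 2.98% in KO and 28.1 ± 5.94% in WT and retained introns (SD, n = 3 each). Srsf6 had 65.0 ± 3.55% of its counts in processed transcripts in KO and 65.2 ± 1.63% in WT, nearly all of it Srsf6-002 with the 268 nt exon shown above. Srsf4 was mostly coding, at 90.1 ± 3.55% in KO and 92.8 ± 2.09% in WT. Srsf10, a splicing repressor when dephosphorylated, and Srsf9 had 74.4 ± 5.80% and 54.6 ± 10.5% coding in KO and 73.8 ± 1.79% and 52.8 ± 1.46% in WT.

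Srsf11, an SR-related protein, had a coding share of 79.9, 76.9 and 77.1% in KO, against 83.2, 86.1 and 79.0% in WT. Its retained-intron share was 17.1, 21.4 and 19.9% in KO, against 14.9, 11.7 and 18.6% in WT. In both shares WT 3 lay within the range of the KO libraries, and the log2 odds of retained introns differed by 0.47 (SE 0.31, limma unadjusted p = 0.182). Per length the groups parted: retained introns held 28.1, 34.5 and 27.9% in KO, against 16.6, 16.4 and 19.9% in WT, and every KO library was higher. The log2 odds then differed by 1.01 (SE 0.29, limma unadjusted p = 0.0144), and those of the coding class, at 62.4 ± 0.86% in KO and 76.6 ± 3.06% in WT (SD, n = 3 each), by -0.99 (SE 0.27, limma unadjusted p = 0.0124). Neither passed, with a limma adjusted p of 0.9998 each. In KO the short transcript Srsf11-012, described further on, had more counts per length than any other retained-intron transcript of the gene.

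Among the hnRNP genes, Hnrnph1, which binds runs of G and acts as both activator and silencer, had most of its counts in processed transcripts. They held 79.1, 80.1 and 73.6% in KO 1, 2 and 3, against 83.0, 82.0 and 85.6% in WT 1, 2 and 3, with every KO library lower. Its coding share was 22.4 ± 3.48% in KO and 16.4 ± 1.86% in WT (SD, n = 3 each; difference in log2 odds 0.55, SE 0.26, limma unadjusted p = 0.0783). About 23.0% of the gene's counts went to Hnrnph1-002, a model of only 159 nt, for which an estimated count is a poor measure. Leaving out transcripts under 300 nt put the coding share at 28.0, 26.2 and 33.6% in KO and 22.3, 24.2 and 17.6% in WT, and the groups still did not overlap.

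Hnrnph3, a relative that binds the same G-rich motifs, had 42.6 ± 8.18% of its counts in the decay class in KO and 48.3 ± 2.41% in WT. Hnrnpl had 20.0 ± 0.27% in its poison-exon class in KO and 22.2 ± 4.16% in WT, and 31.9 ± 4.43% in retained introns in KO and 33.6 ± 3.70% in WT. Hnrnpd, which encodes the AU-rich element binding protein AUF1, had 41.0 ± 0.76% in its decay class in KO and 44.9 ± 6.02% in WT. Hnrnpk, a poly(C)-binding protein, had 43.9 ± 3.12% in retained introns in KO and 45.1 ± 3.01% in WT (SD, n = 3 each for all 4 genes). The groups overlapped in each of these shares.

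The replicate number went with several shares more closely than the genotype did. Of the variation of each tested member share over the 6 libraries, a median of 56.4% lay between the numbers and 12.3% between the genotypes. Over all tested shares these parts were 48.8% and 9.74%. With 3 numbers and 2 genotypes, unstructured values would also put the larger part between the numbers. The decay-class share of Hnrnpu, a nuclear scaffold protein, was 13.4, 2.46 and 20.0% in KO 1, 2 and 3, against 14.4, 5.04 and 24.3% in WT 1, 2 and 3. The retained-intron share of Ptbp1, the polypyrimidine tract binding protein, was 22.6, 29.1 and 15.3% in KO, against 21.0, 35.5 and 16.3% in WT. In both groups number 2 was lowest for Hnrnpu and highest for Ptbp1.

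In some retained-intron shares of the SR genes number 1 was lowest in both groups. Over the SR and Tra2 genes they held 20.1, 23.8 and 22.9% of counts in KO 1, 2 and 3, against 18.0, 24.5 and 27.2% in WT 1, 2 and 3, and the number 1 libraries were the lowest of each group. In Srsf5, an SR gene induced by insulin and by growth stimuli, Srsf5-005 and the other retained-intron transcripts held 38.2, 48.0 and 40.4% in KO, against 30.8, 50.9 and 45.4% in WT. In Srsf2 they held 19.4, 27.5 and 33.5% in KO, against 26.2, 27.4 and 41.2% in WT. This order did not hold in every SR gene. In Srsf11 number 2 was highest in KO and lowest in WT, and in Srsf3 number 1 held 47.4% in KO, above KO 3, and 40.5% in WT, the lowest of its group. The number 1 libraries were also those with the most CD8 T cell marker RNA, and the number 2 libraries those with the most myeloid marker RNA, and the part of either in these shares was not tested.

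**Figure D3:**
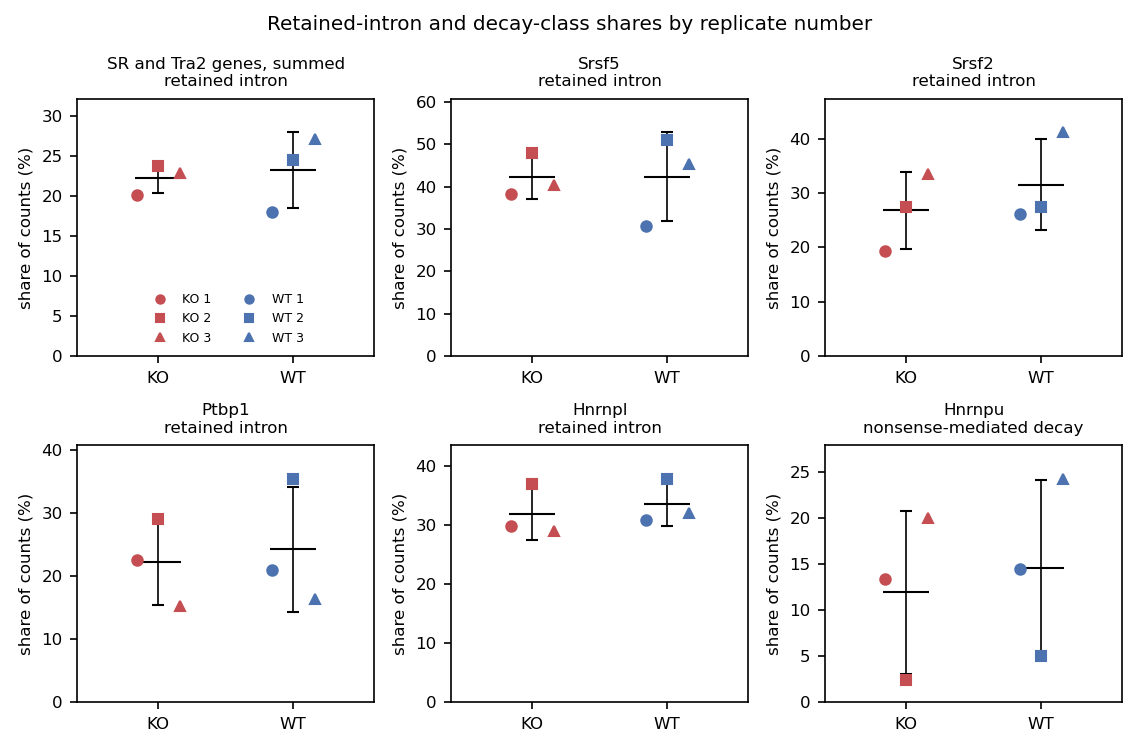
Share of estimated counts (%) in each library for 6 class shares picked for their spread between replicate numbers, KO left and WT right, symbols for the replicate number, black bars for the mean and SD of n = 3. Square symbols (number 2) are lowest for the Hnrnpu decay class and highest for the Ptbp1, Hnrnpl and Srsf5 retained introns in both groups, and circles (number 1) are lowest for the summed SR and Tra2 retained introns.

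Summed over transcripts, the members were abundant and differed little between the genotypes. Together they took 0.862, 0.831 and 0.807% of all counts in KO 1, 2 and 3, against 0.772, 0.784 and 0.802% in WT 1, 2 and 3, and every KO library was above every WT library. With TMM-scaled totals, on which the CPM values rest, the shares were 0.828, 0.809 and 0.813% in KO, against 0.766, 0.837 and 0.808% in WT, and the groups overlapped, with WT 2 the highest of all. On the CPM scale the highest were Hnrnpa2b1, Hnrnpk, Hnrnpa1 and Hnrnpf, all hnRNPs, and Srsf5. Per transcript length, which allows genes to be compared, Hnrnph1 led with 764 ± 176 TPM (counts scaled to length and library) in KO and 672 ± 113 TPM in WT, followed by Hnrnpk with 671 ± 49.8 TPM in KO and 665 ± 135 TPM in WT (SD, n = 3 each). The Hnrnph1 level leans on its 159 nt transcript. Srsf12 was the lowest, at 1.07 to 1.49 CPM in KO and 0.564 to 1.70 CPM in WT.

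**Figure D4:**
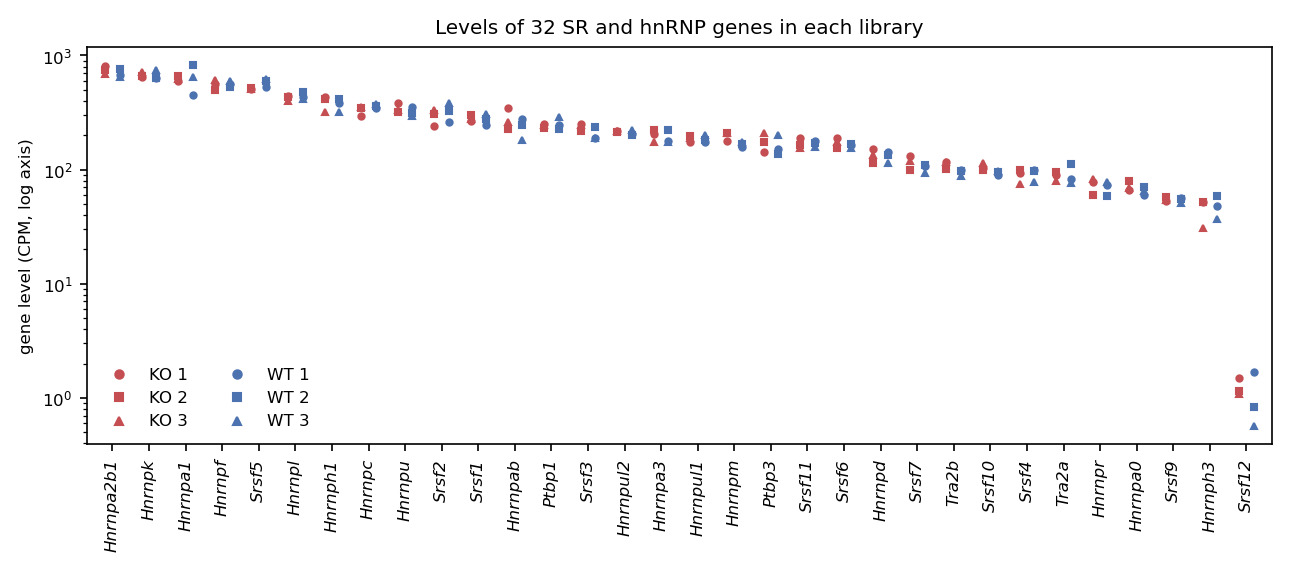
Level of each of the 32 genes in each library (CPM, log axis), KO left and WT right of each gene's tick, symbols for the replicate number, genes ordered by mean count. Every gene but Srsf12 lies between 31.1 and 824 CPM, and KO and WT points overlap for 28 of the 32.

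In edgeR's quasi-likelihood test over 15121 genes, 0 genes passed an adjusted p of 0.05 (0.0% called) and 253 (1.67%) had an unadjusted p under 0.05. Of the 32 members, 0 passed either. With the replicate number as a block, edgeR also called 0 genes. In that fit 1471 genes (9.73%) had an unadjusted p under 0.05, among them 1 member (3.12%), Hnrnpm (unadjusted p = 0.0446). DESeq2 called 13 genes (0.086%), DESeq2 with the replicate number as a block 374 genes (2.47%), and limma-voom 0, in each case with 0 members. The members' log2 changes ran from -0.18 to 0.25, with a median size of 0.078 against 0.166 over all genes, and a median SE of 0.141 against 0.266. Of the members, 22 of 32 (68.8%) had a change above 0, against 52.4% of all genes, with a median of 0.04 against 0.01. In pair 1, KO 1 over WT 1, 25 of the 32 were higher in KO, in pair 2 16, and in pair 3 19.

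KO and WT did not overlap for 4 of the 32 genes (12.5%), against 6.14% of all genes tested: 3 lay above WT, where the background is 3.01%, and 1 below, where it is 3.13%. Hnrnpm, a splicing regulator that in mouse macrophages restrains the maturation of Il6 transcripts, was at 179, 208 and 208 CPM in KO, against 158, 166 and 175 CPM in WT. Tra2b was at 116, 102 and 116 CPM in KO, against 98.5, 96.8 and 87.5 CPM in WT. Srsf10 was at 103, 99.4 and 114 CPM in KO, against 89.4, 95.8 and 97.9 CPM in WT. In these 3 genes the lowest KO library was close to the highest WT library, with gaps smaller than the spread within a group.

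Srsf5 was the gene below, at 511, 524 and 505 CPM in KO, against 530, 598 and 616 CPM in WT. The edgeR log2 changes were 0.25 for Hnrnpm (SE 0.13), 0.24 for Tra2b (SE 0.13), 0.16 for Srsf10 (SE 0.12) and -0.18 for Srsf5 (SE 0.12), with unadjusted p-values of 0.0928, 0.0983, 0.243 and 0.191. Within pair 3, the one in which both libraries carry Xist, the log2 ratios were 0.25 for Hnrnpm, 0.41 for Tra2b, 0.22 for Srsf10 and -0.29 for Srsf5. These genes were picked for values that do not overlap, so the signs of these ratios followed from that choice. Srsf3 had the third smallest p of the members and was at 252, 217 and 249 CPM in KO, against 189, 236 and 190 CPM in WT, where KO 2 lay below WT 2 (log2 change 0.22, SE 0.15, unadjusted p = 0.18 in edgeR).

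The most abundant hnRNP genes overlapped between the groups. Hnrnpa2b1, a factor in RNA transport and splicing, was at 815, 740 and 693 CPM in KO and 677, 761 and 647 CPM in WT. Hnrnpk was at 642, 664 and 719 CPM in KO and 636, 638 and 740 CPM in WT. Hnrnpa1, the best known exon silencer, was at 601, 660 and 626 CPM in KO and 455, 824 and 648 CPM in WT, the widest spread of the 5 genes with the highest counts. Hnrnpa1 has processed pseudogenes that can take or give reads, so its level is uncertain. Hnrnpf was at 562, 501 and 607 CPM in KO and 560, 531 and 602 CPM in WT.

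The remaining SR and PTB genes also overlapped. Srsf1 was at 268, 302 and 278 CPM in KO and 244, 279 and 309 CPM in WT. Srsf2 was at 243, 309 and 330 CPM in KO and 260, 329 and 387 CPM in WT, lower in KO in each pair, and with a step between numbers larger than that between genotypes. Srsf4, Srsf6 and Srsf7 had log2 changes of -0.04, 0.09 and 0.17 in edgeR (SE 0.17, 0.13 and 0.15), and Tra2a one of -0.04 (SE 0.18). Ptbp1 and its relative Ptbp3, which is prominent in blood cells, had changes of -0.07 (SE 0.14) and 0.11 (SE 0.21). The number took a median of 67.0% of the members' variation between libraries and the genotype 7.93%, against 65.6% and 8.85% over all genes. As with the shares, the numbers take the larger part even of unstructured values.

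At the level of single transcripts 186 of the 230 members had enough counts for a test, and the rest were too low. In edgeR 0 of 36508 transcripts passed an adjusted p of 0.05 (0.0%), 630 (1.73%) had an unadjusted p under 0.05, and 7 of the 186 members (3.76%) did. DESeq2 without the block called 61 transcripts (0.167%) and 0 members. DESeq2 with the replicate number as a block called 411 (1.13%), with 3 members (1.61%): Hnrnph1-006 and Srsf11-006 higher in KO, where the background is 0.529%, and Srsf2-005 lower, where it is 0.597%. edgeR with the same block called 0 transcripts, so the 3 calls rest on the choice of tool. KO and WT values did not overlap for 17 of the 186 (9.14%), against 6.58% of all transcripts: 8 above WT (background 3.12%) and 9 below (3.46%).

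Hnrnph1-006, one of the gene's coding transcripts (chr11:50377769-50386528, GRCm38), was at 15.7, 15.7 and 5.73 CPM in KO 1, 2 and 3, against 4.23, 5.39 and 2.03 CPM in WT 1, 2 and 3. Each KO library was above its own numbered WT library and above all 3, though KO 3 only by a little. It rose by 1.65 on the log2 scale in DESeq2 with the block (adjusted p = 4.6e-06), while edgeR without it gave 1.67 (SE 0.55, unadjusted p = 0.0218). In DESeq2 with the block its adjusted p was 0.233, 0.105 and 0.0421 without both libraries of number 1, 2 and 3, and edgeR with the block gave an adjusted p of 0.947. It made up 3.05 ± 1.11% of the gene's counts in KO and 1.02 ± 0.35% in WT (SD, n = 3 each).

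Srsf2-005, a processed transcript of 433 nt (chr11:116850108-116851571), was at 22.8, 31.0 and 29.0 CPM in KO, against 32.9, 44.2 and 44.4 CPM in WT. All KO libraries were below all WT libraries. It fell by 0.54 on the log2 scale in DESeq2 with the block (adjusted p = 0.0129), and edgeR without it gave -0.54 (SE 0.21, unadjusted p = 0.0388). Without number 1, 2 or 3 the block fit in DESeq2 no longer called it, with adjusted p-values of 0.804, 0.581 and 1.0.

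Of the short Srsf11 transcripts, 2 had most of their counts in KO libraries. Srsf11-012, a retained-intron fragment of 521 nt (chr3:158011894-158012520), had 469, 493 and 389 counts in KO, against 37, 102 and 0 in WT. Srsf11-006, a decay-class fragment of 397 nt (chr3:158022013-158031455), had 160, 21 and 111 counts in KO, against 0, 0 and 16 in WT. All KO libraries were above all WT libraries in both, though KO 2 and WT 3 differed little in Srsf11-006. The WT counts alone would not have passed the count filter for either, so both entered the test through their KO libraries. Srsf11-006 passed in DESeq2 with the block (adjusted p = 0.0433), but not without number 1, 2 or 3 (0.767, 0.197 and 0.0658). Srsf11-012 did not pass on all libraries (adjusted p = 0.112) and passed without number 2 or 3 (0.0245 and 0.0334). The gene total did not follow: Srsf11 was at 188, 165 and 153 CPM in KO, against 180, 170 and 157 CPM in WT.

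Among other transcripts with the smallest p-values, Hnrnpk-002, a coding form, was at 63.7, 161 and 102 CPM in KO, against 52.5, 56.9 and 60.6 CPM in WT, with KO 1 just above the WT libraries and KO 2 far above them. Its log2 change was 0.96 (SE 0.34, unadjusted p = 0.0289 in edgeR). Hnrnpm-003, also coding, was at 21.7, 19.9 and 25.3 CPM in KO, against 14.4, 14.7 and 17.8 CPM in WT, with no overlap (log2 change 0.52, SE 0.19, unadjusted p = 0.0346 in edgeR). Srsf3-001 was at 56.5, 44.2 and 61.2 CPM in KO, against 35.3, 44.5 and 35.9 CPM in WT, where KO 2 lay just below WT 2 (log2 change 0.49, SE 0.19, unadjusted p = 0.0389 in edgeR). Beside it, the poison-exon form Srsf3-002 was at 75.9, 66.5 and 79.4 CPM in KO, against 76.9, 82.3 and 71.7 CPM in WT, and the groups overlapped. Ptbp3-002 had 3, 9 and 3 counts in KO, against 25, 23 and 12 in WT, too few for a firm statement.

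**Figure D5:**
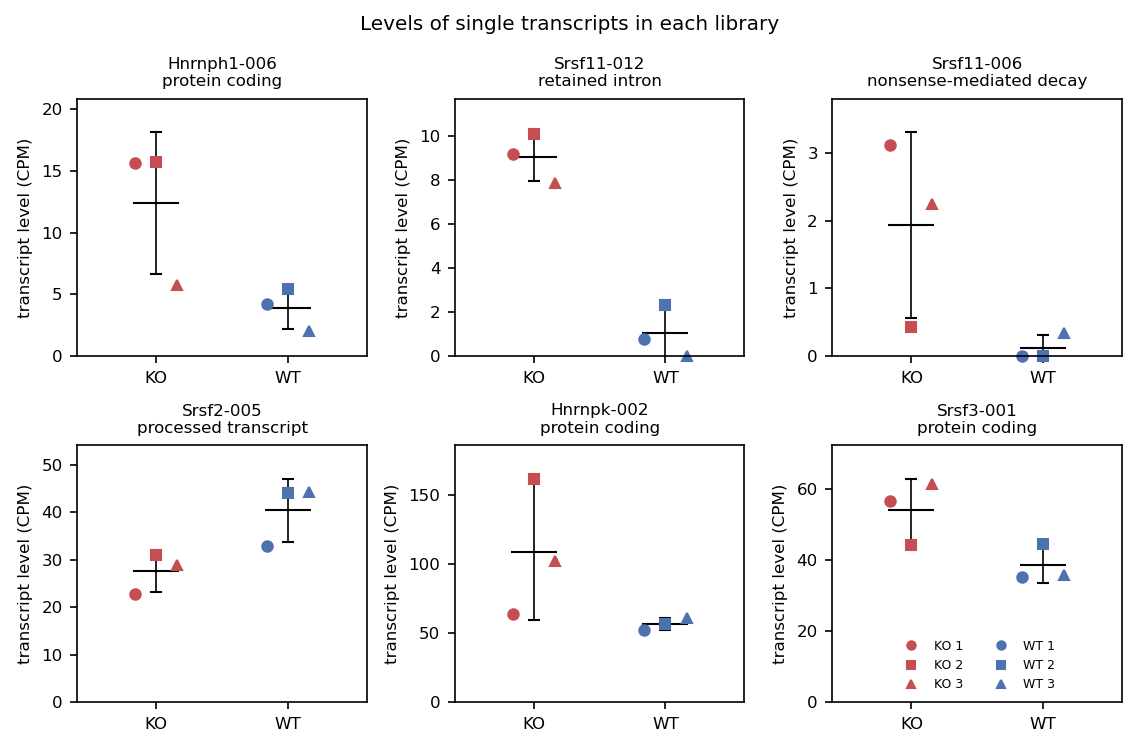
Level of 6 single transcripts in each library (CPM), KO left and WT right, symbols for the replicate number, black bars for the mean and SD of n = 3. Hnrnph1-006, Srsf11-012, Srsf11-006 and Hnrnpk-002 lie higher in all KO libraries and Srsf2-005 lies lower, while Srsf3-001 overlaps at number 2.

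By class, the log2 change was above 0 for 67 of 104 coding transcripts tested, 18 of 40 retained-intron, 4 of 17 decay-class and 12 of 25 processed transcripts, with medians of 0.09, -0.04, -0.14 and -0.06. Over all transcripts tested 49.2% were above 0 and the median was -0.01. Transcripts of one gene share reads that the authors' software divides between them, so these counts are not independent.

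Genes that act on or beside the members were taken from 4 lists. SR proteins are phosphorylated on their serine and arginine tails by the SRPK kinases in the cytoplasm and the CLK kinases in the nucleus. The list of 8 kinases held Srpk1, Srpk2, Clk1 to Clk4, Dyrk1a and Prpf4b. Of these, 0 had a log2 change above 0, against 52.4% of all genes, and the median was -0.12. In edgeR 0 passed an adjusted p of 0.05, and in DESeq2 with the block 2 of the 8 did, against 2.47% of all genes. Clk1, whose own transcript is subject to intron retention, was at 286, 318 and 247 CPM in KO, against 391, 394 and 354 CPM in WT, and every KO library was lower. It fell by 0.44 on the log2 scale in DESeq2 with the block (adjusted p = 0.0035), as did Clk3, at 151, 178 and 146 CPM in KO, against 173, 250 and 196 CPM in WT, by 0.38 (adjusted p = 0.0428). In edgeR without the block their unadjusted p-values were 0.0224 and 0.0705. For Clk3, KO 2 lay above WT 1, so the groups overlapped.

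Of 14 factors of nonsense-mediated decay, 9 had a change above 0, with a median of 0.03, and of 24 core spliceosome genes 16, with a median of 0.07; 0 of either passed in edgeR or in DESeq2 with the block. Of 26 other splicing regulators 11 had a change above 0, with a median of -0.07, and 1 passed in DESeq2 with the block (3.85%, against 2.47% of all genes, so near the background). It was Rbm5, a regulator of apoptosis genes' splicing, at 174, 227 and 194 CPM in KO, against 225, 299 and 254 CPM in WT, which fell by 0.40 on the log2 scale (adjusted p = 0.0042; unadjusted p = 0.0553 in edgeR). In all 3 pairs the KO library was lower, and KO 2 lay just above WT 1.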

How the data were processed

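RNA was measured in 3 KO and 3 WT cultures. The deposited table holds estimated counts per transcript and library, beside transcript lengths and a GC fraction, per the file headers; the GC fraction was not used. Per the submitters' processing notes, the tools were Bowtie2 2.1.0 and eXpress 1.3.1 and the build was GRCm38. The sources used here give neither the annotation release nor the strand setting. Only 0.02% of values above 0.5 were whole within 0.0001, so they were read as estimated counts. Totals were 47335736 to 49743762 per library, and a count of 0 allows up to 3 counts, for counting error only.

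Estimated counts were rounded for transcripts, summed per gene and tested with edgeR 4.0.16 (quasi-likelihood, TMM, filterByExpr, no block). CPM values used the TMM-scaled totals. TPM values came from counts divided by transcript length. Class shares were tested with limma 3.58.1 on log2 odds with a pseudocount of 0.5 counts, for genes of at least 50 mean counts and classes of at least 10. P-values were adjusted by Benjamini-Hochberg over all genes, transcripts or shares tested, with a threshold of 0.05. DESeq2 1.42.0, limma-voom, R 4.3.3, Python 3.11.15, numpy 2.4.6, pandas 2.3.3 and matplotlib 3.10.9 were also used. Each test was tested on simulated data, where the share test and edgeR's transcript test missed the planted changes and most transcripts called by DESeq2 with the block were unchanged ones. Alternatives were other size factors, filters, tools and pseudocounts, shares per length, a replicate block, and leaving out libraries; the DESeq2 fits without both libraries of a number, and the shares without transcripts under 300 nt, were added after seeing the data.

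KO and WT share the replicate numbers, whose meaning the labels leave out. Over genes, libraries of the same number deviated together from their group means (correlations of 0.48, 0.33 and 0.49, all above 0.1). The numbers were therefore used as pairs in the ratios within a number, and as a block in alternative fits. The main edgeR and limma tests left the numbers out. For shares the same correlations were 0.05, 0.24 and 0.28. Variation by number or genotype is the part of a value's sum of squares over the 6 libraries. P-values measure the spread between these libraries.

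The members and lists were chosen with earlier results of these data known. Members named with values are Srsf1 to Srsf7, Tra2a, Tra2b, Ptbp1 and Ptbp3, any past a threshold, the 5 with the smallest p of each test, the 5 highest by count, the 5 with the largest non-coding share, and the 5 transcripts with the largest change without overlap. The other members named, and the shares plotted by number, were picked after their values were seen. Reading frames came from a match of the deposited transcript names to GENCODE vM21.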

Additional observations from a re-analysis of the deposited data

How the results depend on the processing

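The count of genes called was 0 in edgeR, limma-voom and edgeR with the replicate block, 13 in DESeq2 and 374 in DESeq2 with the replicate block, 0 to 1 without 1 library, and 177, 264 and 147 in the block fit without number 1, 2 or 3; 0 members passed in any of them. The count of transcripts called was 61 in DESeq2 and 411 in DESeq2 with the replicate block, 0 without 1 library, and 226, 364 and 270 in the block fit without number 1, 2 or 3. That fit called 3 members on all libraries. Without number 1 it called Hnrnpk-002, without number 2 Srsf11-012 and Srsf5-004, and without number 3 Hnrnph1-006, Hnrnpr-009 and Srsf11-012, so of the 3 members 1 was called again, without number 3. The count of shares called was 6 per length, 0 with the replicate block, 0 without transcripts under 300 nt and 1 to 8 without 1 library, with 0 to 1 members: without WT 3 the Srsf5 decay-class share passed, a share of 0.165% or less in every library. Beside the 3 transcripts, the replicate block made or ended no member's call on all 6 libraries. Of 484 values of named members under alternatives, 441 stayed on their side, 8 passed a threshold and 35 turned sign. The sign turned for Hnrnpa1 in edgeR with the replicate block (0.0096), limma-voom (0.0097) and limma-voom with the block (0.016), and for Hnrnpk with DESeq2 size factors (-0.0035), in DESeq2 (-0.0035) and with the block (-0.0013). Leaving out 1 library put the log2 change at -0.22 to 0.19 for Hnrnpa1, -0.11 to 0.028 for Hnrnpf, -0.033 to 0.17 for Hnrnph1, -0.25 to 0.11 for Hnrnph3, -0.064 to 0.072 for Hnrnpk, -0.14 to 0.027 for Ptbp1, -0.067 to 0.27 for Ptbp3, -0.056 to 0.098 for Srsf1, -0.16 to 0.048 for Srsf4 and -0.16 to 0.15 for Tra2a. In DESeq2 with the block, the sign also turned without number 1 for Srsf1 (-0.016), without number 2 for Hnrnpa1 (0.156), Hnrnpk (-0.034), Ptbp3 (-0.037), Srsf1 (-0.030) and Tra2a (0.061), and without number 3 for Hnrnpa1 (0.030) and Ptbp1 (0.019). The cause was not tested.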
